A study of Homo sapiens with 41 samples.

Results

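The 9 imprinted genes H19, IGF2, KCNQ1, CDKN1C, GNAS, GRB10, PEG10, SNRPN and NNAT, taken as imprinted loci with known control by the insulator protein CTCF, were chosen by name out of 59080 genes of the RefSeq table. For each gene the span given by RefSeq on hg38 and the 20 kb on either side were searched for peaks of CTCF and RAD21. Overlapping peaks of all 25 lists merged into 63 sites at these genes, out of 84044 sites in the genome. CTCF, RAD21 and RNA polymerase II (Pol II) had been mapped by chromatin immunoprecipitation with sequencing in T47D cells, a long-established line from a luminal human breast cancer, before, during and after hyperosmotic stress.

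All cells had been depleted of steroids and synchronised by serum withdrawal. Untreated cells received nothing further, stressed cells received 110 mM NaCl, and recovering cells had 60 min of NaCl followed by 60 min in isotonic medium. For CTCF there were 3 untreated libraries, 2 at 7.5 min, 1 at 30 min, 3 at 1 h of NaCl and 1 of recovery. For RAD21 there were 3 untreated, 3 at 1 h and 3 of recovery, and for Pol II 2 untreated and 2 at 1 h. Each of the 3 states, for CTCF and for RAD21, also had 1 library from cells given 500 nM triptolide, an inhibitor of transcription initiation, beforehand. The libraries came in 2 submissions, here set 1 (17 lists) and set 2 (12 lists), and replicate 3 of CTCF and RAD21 is the set 2 library. In 6 of the 12 set 2 libraries a tag contradicts the title on triptolide, and the titles were followed. Nothing states that replicates were separate cultures, so the spread between libraries may be technical. The lists hold no read totals, so the number of called peaks stands in for depth. CTCF lists held 20678 to 59843 peaks, RAD21 lists 3344 to 40969 peaks and Pol II lists 88046 to 216968 regions. Of 10 luminal epithelial marker genes, 8 and 7 had over 50% of their span in Pol II regions in the untreated libraries (KRT18 was at 0 in all 4 lists), against 0 of 6 fibroblast, 0 of 6 haematopoietic and 0 of 6 neuronal and muscle markers.

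Imprinted genes are expressed from the copy of one parent only, a choice laid down by DNA methylation in the germ line at imprinting control regions. CTCF binds several of these regions on the unmethylated copy alone and stops the cohesin ring, of which RAD21 is a subunit, as it extrudes loops. At the H19 and IGF2 locus this is the classical model of insulation, in which CTCF bound upstream of H19 on the maternal copy separates IGF2 from enhancers beyond H19. The peak lists do not separate the parental copies, so a site here is the sum of both.

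H19, a long non-coding RNA made from the maternal copy, lies at chr11:1995176-2001266, and IGF2, a fetal growth factor made from the paternal copy, at chr11:2129117-2149566, 127.85 kb away. KCNQ1, a potassium channel subunit, spans chr11:2445008-2849105 and CDKN1C, an inhibitor of cyclin-dependent kinases, chr11:2883218-2885775, 34.112 kb beyond it, so that the search windows of these 2 genes share 5888 bp. GNAS, which encodes the stimulatory G protein alpha subunit from several promoters, lies at chr20:58839748-58911192. GRB10, an adaptor that restrains insulin signalling, lies at chr7:50590068-50793453, and PEG10, a gene derived from a retrotransposon, at chr7:94656325-94669695. SNRPN, a splicing protein gene of the Prader-Willi region, lies at chr15:24823637-24978723, and NNAT, which encodes neuronatin, at chr20:37521250-37523690. The table gives gene spans only, so exons, introns and UTRs were not assigned. Of the 63 sites 44 touch a span and 19 lie outside, 24 belong to the chromosome 11 genes, and 17 were found in 1 list alone.

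Promoter sequences were at hand for 4 of the 9 genes (H19, GNAS, GRB10 and SNRPN), with 16 entries of 250 bases before to 50 after a start, from RefSeq on GRCh38.p14. Those shown are the H19 promoter, which no peak touched although peaks stood on either side of it, and 3 promoters that peaks did touch. All are printed 5′ to 3′ on the strand of the gene. Capitals mark GGNGGCAG, an 8-letter run from the core of the CTCF motif, on the printed strand or, as CTGCCNCC, on the opposite one. Of all 35116 promoters 16.7% hold it. A match describes letters and shows no binding. Among the entries not shown, matches and peaks did not always go together. The GNAS entry at chr20:58852466-58852765 has no match and had CTCF in 2 of 3 untreated libraries. The SNRPN entry at chr15:24856321-24856620 has 1 match and had no peak in any list.
H19, chr11:2001217-2001516, minus strand: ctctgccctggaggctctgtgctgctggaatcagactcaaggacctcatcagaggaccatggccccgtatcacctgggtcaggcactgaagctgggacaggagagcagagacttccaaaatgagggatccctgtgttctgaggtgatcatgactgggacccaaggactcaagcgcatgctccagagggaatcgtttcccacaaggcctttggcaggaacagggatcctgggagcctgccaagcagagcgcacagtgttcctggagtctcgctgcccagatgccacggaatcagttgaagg
GNAS, chr20:58839498-58839797, plus strand: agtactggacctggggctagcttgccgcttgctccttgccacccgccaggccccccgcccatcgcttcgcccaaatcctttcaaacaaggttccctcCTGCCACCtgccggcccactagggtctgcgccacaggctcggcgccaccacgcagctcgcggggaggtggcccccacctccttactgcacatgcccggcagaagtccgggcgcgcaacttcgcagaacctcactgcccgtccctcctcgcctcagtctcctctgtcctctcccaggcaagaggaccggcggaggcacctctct
GNAS, chr20:58852731-58853030, plus strand: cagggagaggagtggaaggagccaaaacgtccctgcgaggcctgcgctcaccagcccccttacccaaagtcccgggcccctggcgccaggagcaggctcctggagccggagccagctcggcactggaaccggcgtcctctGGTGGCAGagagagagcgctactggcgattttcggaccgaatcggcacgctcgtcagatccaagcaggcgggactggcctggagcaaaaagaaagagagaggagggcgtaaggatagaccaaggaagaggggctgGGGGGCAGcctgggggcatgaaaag
GRB10, chr7:50793404-50793703, minus strand: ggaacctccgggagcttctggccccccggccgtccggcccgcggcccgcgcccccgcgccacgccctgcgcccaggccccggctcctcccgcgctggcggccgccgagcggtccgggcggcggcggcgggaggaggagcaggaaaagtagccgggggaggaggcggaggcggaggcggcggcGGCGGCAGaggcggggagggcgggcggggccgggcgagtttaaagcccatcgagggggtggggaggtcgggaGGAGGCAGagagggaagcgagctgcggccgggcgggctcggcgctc

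The GNAS promoter at chr20:58839498-58839797 is the most upstream of that gene's 6 entries. A CTCF peak touched it in 3 of 3 untreated and 3 of 3 libraries at 1 h of NaCl, whereas a RAD21 peak touched it in 3 of 3 untreated, 0 of 3 stressed and 1 of 3 recovery libraries. The GNAS promoter at chr20:58852731-58853030, with 2 matches, had CTCF in 2 of 3 untreated libraries and 1 of 3 at 1 h, and RAD21 in none of these. The GRB10 promoter, also with 2 matches, had RAD21 in 3 of 3 untreated and 0 of 3 stressed libraries and CTCF in 2 of 3 and 0 of 3.

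CTCF stayed at most of its sites at these genes after 1 h of NaCl. Counting every site with a peak, untreated libraries held 48, 33 and 33 of the 63 sites and 1 h libraries 26, 25 and 23. The groups did not overlap, but the lists shortened as well, and per 10000 peaks the untreated libraries held 8.02, 7.53 and 8.56 of the sites and the 1 h libraries 7.35, 7.31 and 10.4, which do overlap. Of the 23 sites present in all 3 untreated lists, 17 were present in all 3 lists at 1 h (73.9%; 57.1% over all 25596 such sites), 0 were in none (5.85% over all sites) and 6 were in some. No site at these genes was in all 1 h lists and no untreated list (0.0391% over all 71635 CTCF sites). Leaving out one library changed the count of 0, to 6 of 33 sites without untreated replicate 3 (22.8% over all sites), to 4 of 32 without untreated replicate 2 (13.8% over all sites) and to 1 of 23 without 1 h replicate 2 or 3 (6.54 and 5.91% over all sites). Within set 1 it was 7 of 33 (22.8% over all sites) and within set 2, with 1 library a group, 12 of 35 (49.9% over all sites). The share over the genome rose under these settings as well.

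**Figure D1:**
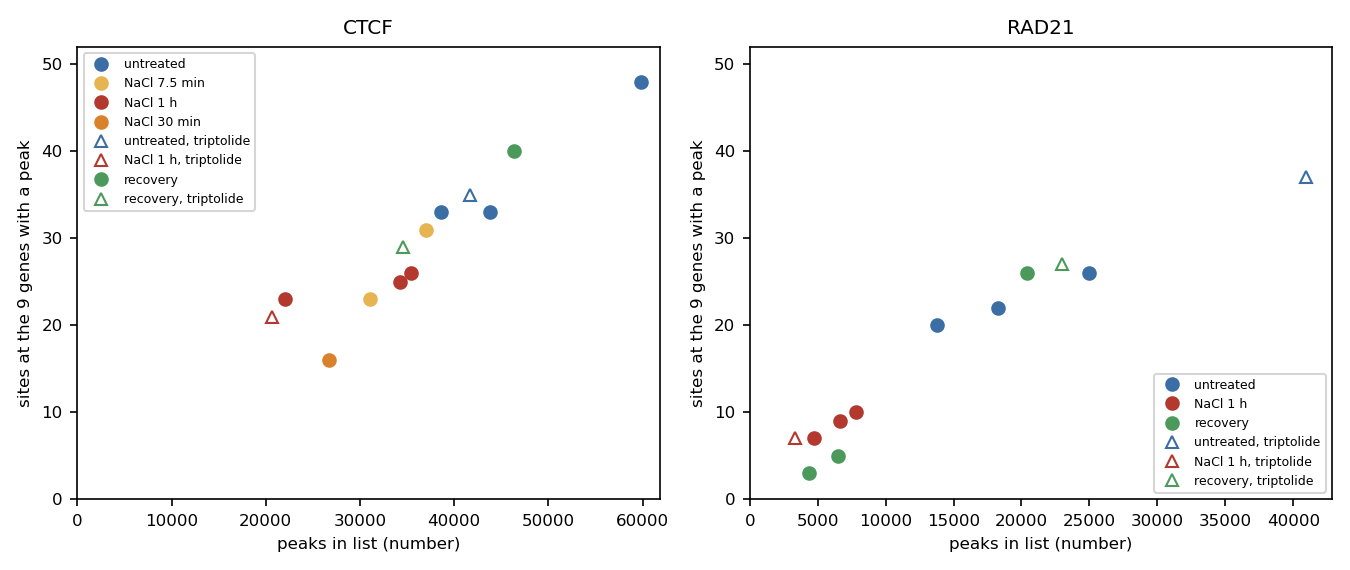
Sites at the 9 genes with a peak (vertical axis, out of 63) against the number of peaks in the list (horizontal axis), for the 13 CTCF and the 12 RAD21 lists, 1 point each, coloured by condition, with open triangles for triptolide. The longest list of each factor held the most sites, 48 for CTCF and 37 for RAD21, but the fewest were not in the shortest: the 30 min CTCF list of 26737 peaks held 16 and the shortest, of 20678, held 21, and the RAD21 list of 4397 peaks held 3 and the shortest, of 3344, held 7.

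The kept sites covered 8 of the 9 genes. At H19 they were chr11:1999747-2000402 and chr11:2000516-2001126 in the span and chr11:2001974-2003330 beyond the end at which transcription starts, the side on which the imprinting control region is known to lie. At IGF2 they were chr11:2151297-2152469, chr11:2156380-2157050 and chr11:2165740-2166723, all beyond the upper end of the span and the last of them in TH. KCNQ1 kept chr11:2427847-2428738, in the neighbouring TRPM5, and the adjacent chr11:2531141-2532220 and chr11:2532381-2533222 inside its own span. CDKN1C kept chr11:2888310-2888808 and chr11:2891946-2892659. Outside chromosome 11 the kept sites were chr20:58839389-58839874 and chr20:58870144-58870747 at GNAS, chr7:50632713-50633522 and chr7:50782145-50783011 at GRB10, chr15:24846980-24847501 at SNRPN and chr20:37534333-37535034 at NNAT. KCNQ1OT1, the antisense RNA of the paternal copy that silences this domain, has 1 site in its span, at chr11:2692299-2692789. CTCF was there in 2 of 3 untreated lists and 0 of 3 at 1 h. PEG10 had no CTCF site in all untreated lists: its site at chr7:94655884-94656609, which also touches SGCE, was in untreated replicates 1 and 3 and in all 3 lists at 1 h.

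Read as one locus, H19, IGF2, KCNQ1 and CDKN1C kept 11 of their 13 CTCF sites and the other 5 genes 6 of 10. The sites that were in only some lists at 1 h were chr11:1998240-1999338 at H19 (2 of 3 lists), chr11:2884165-2885526 at CDKN1C (1 of 3), chr20:58880963-58881492 at GNAS (2 of 3), and 3 at GRB10, of which chr7:50696568-50697111 and chr7:50801956-50802314 were in 2 of 3 and chr7:50795636-50796091 in 1 of 3. At GRB10 the libraries had 11, 9 and 7 CTCF peaks untreated and 6, 7 and 2 at 1 h, and at GNAS 8, 5 and 6 against 5, 4 and 3. At H19 they were 4, 5 and 4 against 5, 4 and 4. For 0 of the 9 genes did the groups separate (6.97% of all 45408 genes with a peak, and 10.1% of the 31412 with a peak in every untreated library, were lower in every 1 h library), the smallest exact permutation p being 0.2 where 0.1 is the least that 3 against 3 libraries allow. Same-numbered CTCF libraries deviated together in part (r 0.19, 0.51 and 0.47, against -0.453 to 0.164 between different numbers). With the replicate number as a block 3 genes (KCNQ1, GNAS and GRB10) had fewer CTCF peaks at 1 h in every pair, beside 16.9% of all genes. Without the block, the count was 4 without untreated replicate 3 (23.2% of all genes), 3 without untreated replicate 2 (20.4%), 2 without 1 h replicate 3 (8.33%), and 1 without 1 h replicate 1 (11.98%) or 2 (7.71%).

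Strength within the list gives another view. Each peak carries the authors' fold enrichment over the caller's background. Its percentile is its rank counted from the lowest value, with ties averaged, as a percentage of the number of peaks in that list. The KCNQ1 site at chr11:2532381-2533222 stood at percentiles 96.7, 31.0 and 98.8 in the untreated lists and 82.9, 63.9 and 93.0 at 1 h. The SNRPN site stood at 98.3, 95.1 and 56.6 untreated and 84.9, 85.7 and 58.9 at 1 h. The H19 site at chr11:2001974-2003330 stood at 92.6, 40.4 and 88.8 untreated and 71.1, 42.8 and 82.6 at 1 h. At all 3 sites the groups overlapped, and since the lists differ in length a percentile describes a place in its own list. The middle value of the 3 untreated percentiles ranged from 56.9 to 96.7 among the 17 kept sites (median 85.6) and from 21.1 to 82.9 among the 6 sites in some lists at 1 h (median 65.4).

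Untreated replicates themselves disagreed on which sites rank high. Of the 23 CTCF sites, 15 stood over 30 percentile points higher in replicate 3 (set 2) than in replicate 2 (set 1) and 5 stood over 30 points lower. The GRB10 site at chr7:50782145-50783011 was at percentile 98.1 in replicate 3 and 4.15 in replicate 2, and the IGF2 site at chr11:2165740-2166723 at 91.7 and 1.70. SNRPN and NNAT went the other way, with NNAT at 50.6 in replicate 3 and 95.5 in replicate 2. Replicate 1, of set 1 like replicate 2, was nearer to replicate 3 than to replicate 2 at 16 of the 23 sites. It stood over 30 points higher than replicate 2 at 13 sites and lower by that much at 0, and replicate 3 differed from it by over 30 points at 5 sites, in 1 of which replicate 3 was the higher. Replicate 2 was thus the library that most often stood apart, and at most sites the ranks did not divide by set. At some they did. Both set 1 libraries stood above replicate 3 at SNRPN (98.3 and 95.1 against 56.6) and at NNAT (87.8 and 95.5 against 50.6). A difference between the sets was not tested.

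**Figure D2:**
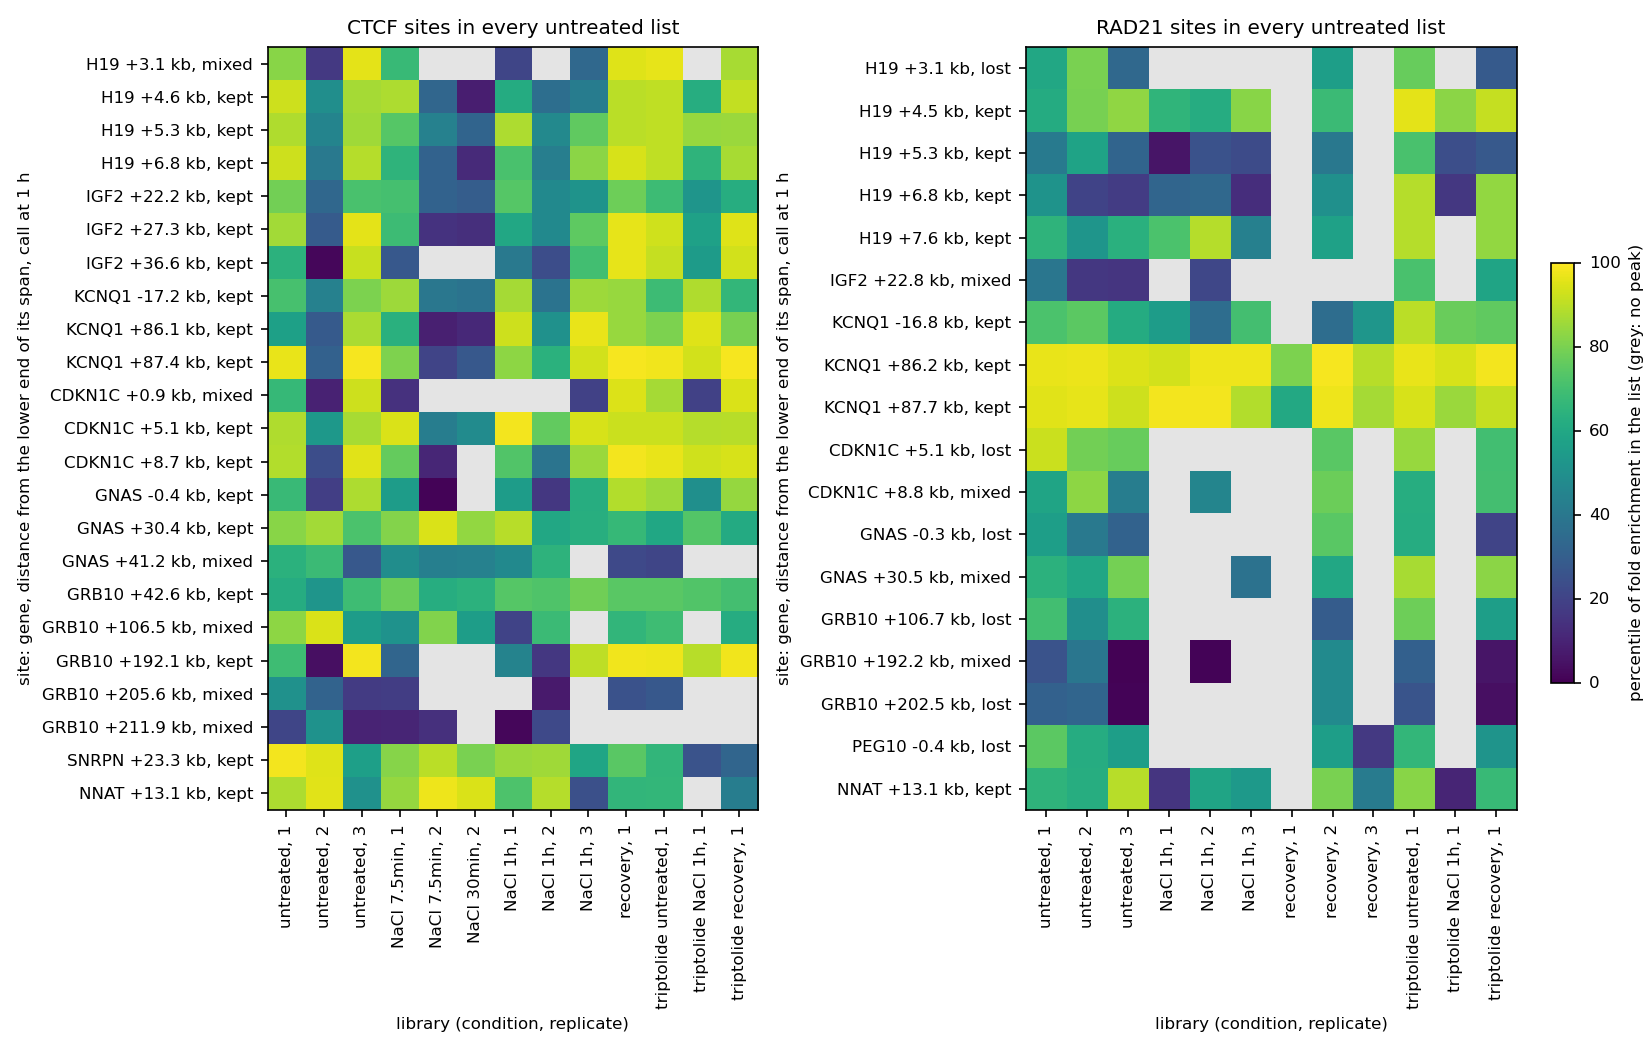
Percentile of fold enrichment within each list (colour; grey where the list has no peak) for the 23 CTCF sites and 18 RAD21 sites found in every untreated list, 1 column per library. Rows give the gene, the distance of the site from the lower end of its span and the call at 1 h; the 2 KCNQ1 sites inside the span stay coloured in all 12 RAD21 lists, while most sites at CDKN1C, GNAS, GRB10 and PEG10 turn grey at 1 h.

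Shorter exposures were covered by fewer CTCF libraries. At 7.5 min the 2 libraries held 31 and 23 of the 63 sites, at 30 min the single library held 16, and after recovery the single library held 40. Between the set 1 libraries, 33 sites were in both untreated lists, of which 23 were in both lists at 7.5 min (69.7%; 67.8% over all sites), 3 in neither (20.6% over all sites) and 7 in 1. None was in both 7.5 min lists and no untreated one (0.157% over all sites). These 3 lay at IGF2 (chr11:2150226-2150718), GRB10 (chr7:50774330-50774647) and NNAT (chr20:37501928-37502259). Without untreated replicate 2 the number in neither rose to 17 of 49 sites (40.98% over all sites), and without 7.5 min replicate 1 to 9 of 33 (28.7% over all sites). At H19 the peak number was 5 and 4 at 7.5 min, 4 at 30 min and 3 after recovery, and at GRB10 it was 8 and 6, 4 and 7.

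RAD21 behaved differently from gene to gene. At 1 h its peaks at the KCNQ1 and NNAT sites and at 4 of the 5 H19 sites were still called in every library, while those at GNAS, GRB10, CDKN1C and PEG10 were mostly gone. Over all 9 genes the untreated libraries held 22, 20 and 26 of the 63 sites and the 1 h libraries 7, 10 and 9. The groups did not overlap, in lists that shortened from between 13762 and 24931 peaks to between 4761 and 7843. Per 10000 peaks the numbers were 12.02, 14.5 and 10.4 untreated and 14.7, 12.8 and 13.6 at 1 h, which do overlap.

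Of 18 RAD21 sites in all untreated lists, 8 were in all lists at 1 h (44.4%; 34.5% over all 10098 such sites), 6 in none (33.3%; 32.4% over all sites) and 4 in 1 of 3. None was in all 1 h lists and no untreated list (0.00673% over all 29711 RAD21 sites). The share absent at these genes was close to that over the genome. The chromosome 11 genes kept 7 of 11 sites, with 2 absent, and the other 5 genes kept 1 of 7, with 4 absent. Of these 7 kept sites 4 lay at H19 and 3 at KCNQ1, and IGF2 and CDKN1C kept 0. Neighbouring sites of a gene are not independent. Within set 2, with 1 library a group, 18 of 29 sites were absent, beside 73.9% over all sites. When every list was reduced to its 4761 strongest peaks, only 2 of these sites remained in all untreated lists, and both were in all 1 h lists (66.6% over all sites).

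At KCNQ1 the 3 RAD21 peaks of every untreated library were matched by 3 in every library at 1 h. Its adjacent sites at chr11:2531256-2531816 and chr11:2532712-2533227 lie on the 2 CTCF sites inside the span and were called in all 12 RAD21 lists, those with triptolide and the shortest ones included. They were the only 2 of the 63 sites of which this holds. How many sites over the genome were in all 12 lists was not counted. In every RAD21 list without triptolide there were 2249 sites over the genome, so such sites are not particular to KCNQ1. The first of them stood at percentiles 96.7, 96.9 and 94.9 untreated, 93.1, 97.6 and 97.5 at 1 h, and 80.2, 98.6 and 89.3 after recovery. In the list of 3344 peaks (triptolide and 1 h of NaCl) it stood at 94.1. Over the 12 lists its lowest percentile was 80.2. The KCNQ1 window also kept chr11:2428182-2428699 in TRPM5, at percentiles 71.6, 74.7 and 61.7 untreated and 55.3, 35.6 and 70.2 at 1 h.

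At H19 the RAD21 peaks numbered 5, 5 and 5 in the untreated libraries and 4, 4 and 4 at 1 h. The missing site was chr11:1998281-1999233, inside the span and the lowest of the 5 by coordinate, at untreated percentiles 60.1, 79.7 and 33.8. The 4 that stayed were chr11:1999713-2000203, chr11:2000515-2001016, chr11:2001991-2002368 and chr11:2002763-2003225, which run across the start of the gene and into its upstream flank. Rank in the untreated lists did not separate them from the missing site: chr11:2001991-2002368 stood at untreated percentiles 51.3, 20.2 and 17.6 and was called in every 1 h list, at 32.6, 33.7 and 13.03. IGF2 kept no RAD21 site by this count. Its site at chr11:2151930-2152268, merged from RAD21 peaks alone, was in 1 of 3 lists at 1 h. Merging CTCF and RAD21 peaks together gave a wider site there, chr11:2151297-2152549. This wider site held RAD21 in 3 of 3 untreated lists and 2 of 3 at 1 h. In the same joint merge chr11:2156265-2157050 held RAD21 in 2 of 3 untreated lists and 3 of 3 at 1 h.

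CDKN1C, at the other end of the same locus, had 3, 3 and 2 RAD21 peaks untreated and 0, 1 and 0 at 1 h. Its site at chr11:2888310-2888762 stood at untreated percentiles 91.9, 78.8 and 76.7 and was in no list at 1 h. The CTCF site beneath it, chr11:2888310-2888808, was in every list at 1 h, at percentiles 98.3, 75.8 and 94.0 after 88.3, 53.4 and 87.0 untreated. RAD21 was thus not called where CTCF still ranked high. The groups of CTCF percentiles overlapped.

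GNAS had 3, 3 and 5 RAD21 peaks untreated and 0, 0 and 1 at 1 h. The promoter site at chr20:58839403-58839848 was lost and chr20:58870226-58870708 was left in 1 list, while CTCF was in all 3 lists at both places. GRB10 had 4, 4 and 7 RAD21 peaks untreated and 0, 1 and 0 at 1 h, with chr7:50696745-50697170 and the promoter site chr7:50792582-50793767 lost. PEG10 had 1, 1 and 1 and then 0, 0 and 0, its site being chr7:94655889-94656573 at the lower end of the span. SNRPN had 1, 0 and 1 and then 0, 0 and 0. NNAT had 1 in every library of both states, at chr20:37534348-37534857.

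In 5 of the 9 genes (H19, CDKN1C, GNAS, GRB10 and PEG10) every 1 h library had fewer RAD21 peaks than every untreated one, beside 22.1% of all 31915 genes with a peak and 40.1% of the 17592 genes that had a peak in every untreated library. The exact permutation p of each was 0.1, the least possible here, and 0.453 after adjustment over all genes, so none passed a threshold of 0.05. With the 4761 strongest peaks of each list 0 genes were lower (2.77% of all genes).

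**Figure D3:**
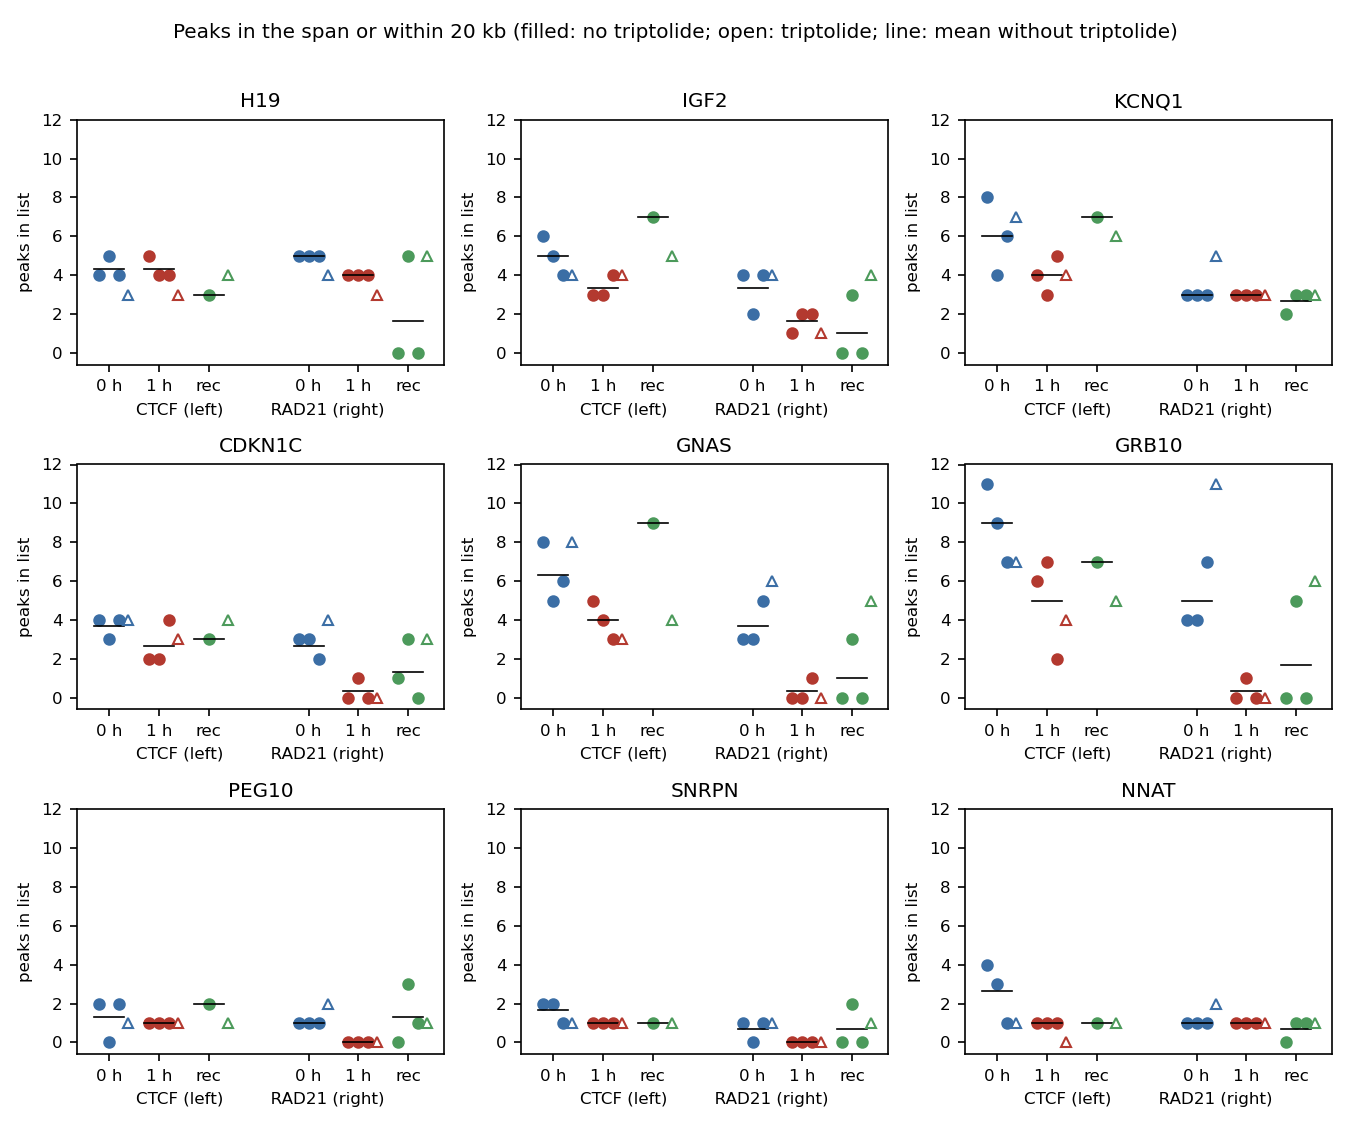
CTCF peaks (left in each panel) and RAD21 peaks (right) in the span or within 20 kb of each gene (vertical axis), in untreated cells (0 h), at 1 h of NaCl and in recovery (rec), 1 filled point per library without triptolide with the mean as a line, and 1 open triangle per library with triptolide. RAD21 falls to 0 or 1 at CDKN1C, GNAS, GRB10 and PEG10 and goes from 5 to 4 at H19 and stays at 3 at KCNQ1, while the CTCF groups overlap at every gene.

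Most RAD21 sites lay on CTCF. Of the 18 RAD21 sites in all untreated lists 16 overlapped a CTCF site present in all untreated lists (88.9%; 92.7% over all sites), and all 18 overlapped one present in at least 1. Of the 63 sites, 6 had RAD21 in 1 to 3 lists and CTCF in none. In the other direction 15 of the 23 CTCF sites had RAD21 in all untreated lists (65.2%; 36.4% over all sites). The CTCF sites without it included those of SNRPN and GRB10 at chr7:50632713-50633522, both kept at 1 h.

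Recovery split the RAD21 libraries. The 3 recovery libraries held 3, 26 and 5 of the 63 sites in lists of 4397, 20400 and 6492 peaks, so that replicate 2 resembled the untreated lists in length and replicates 1 and 3 those at 1 h. Of the 6 sites absent at 1 h, 0 were in all recovery lists (10.3% over all 3264 such sites), 1 was in 2 (PEG10) and 5 were in replicate 2 alone. Without replicate 1 the PEG10 site was in all (28.8% over all sites). For 0 of the 9 genes was the RAD21 peak number higher in every recovery library than in every 1 h library (1.88% of all genes), with exact permutation p from 0.4 to 1.

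H19 and KCNQ1 parted in recovery. All 4 H19 sites that had RAD21 in every untreated and every 1 h library had it in recovery replicate 2 alone, and H19 had 0, 5 and 0 RAD21 peaks there. The 2 KCNQ1 sites inside the span had it in all 3 recovery libraries, and the remaining KCNQ1 site and the NNAT site in 2. Over all 3482 sites kept at 1 h, 64.6% were in all recovery lists and 11.2% in at most 1. The H19 sites lie within 4 kb of each other and are not independent. Recovery replicate 3, with 6492 peaks and no H19 site, was longer than the 1 h list of 4761 peaks that held all 4. Recovery replicate 1, with 4397 peaks, was shorter than that list. What part list length or the rank of these sites had in their absence was not tested.

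**Figure D4:**
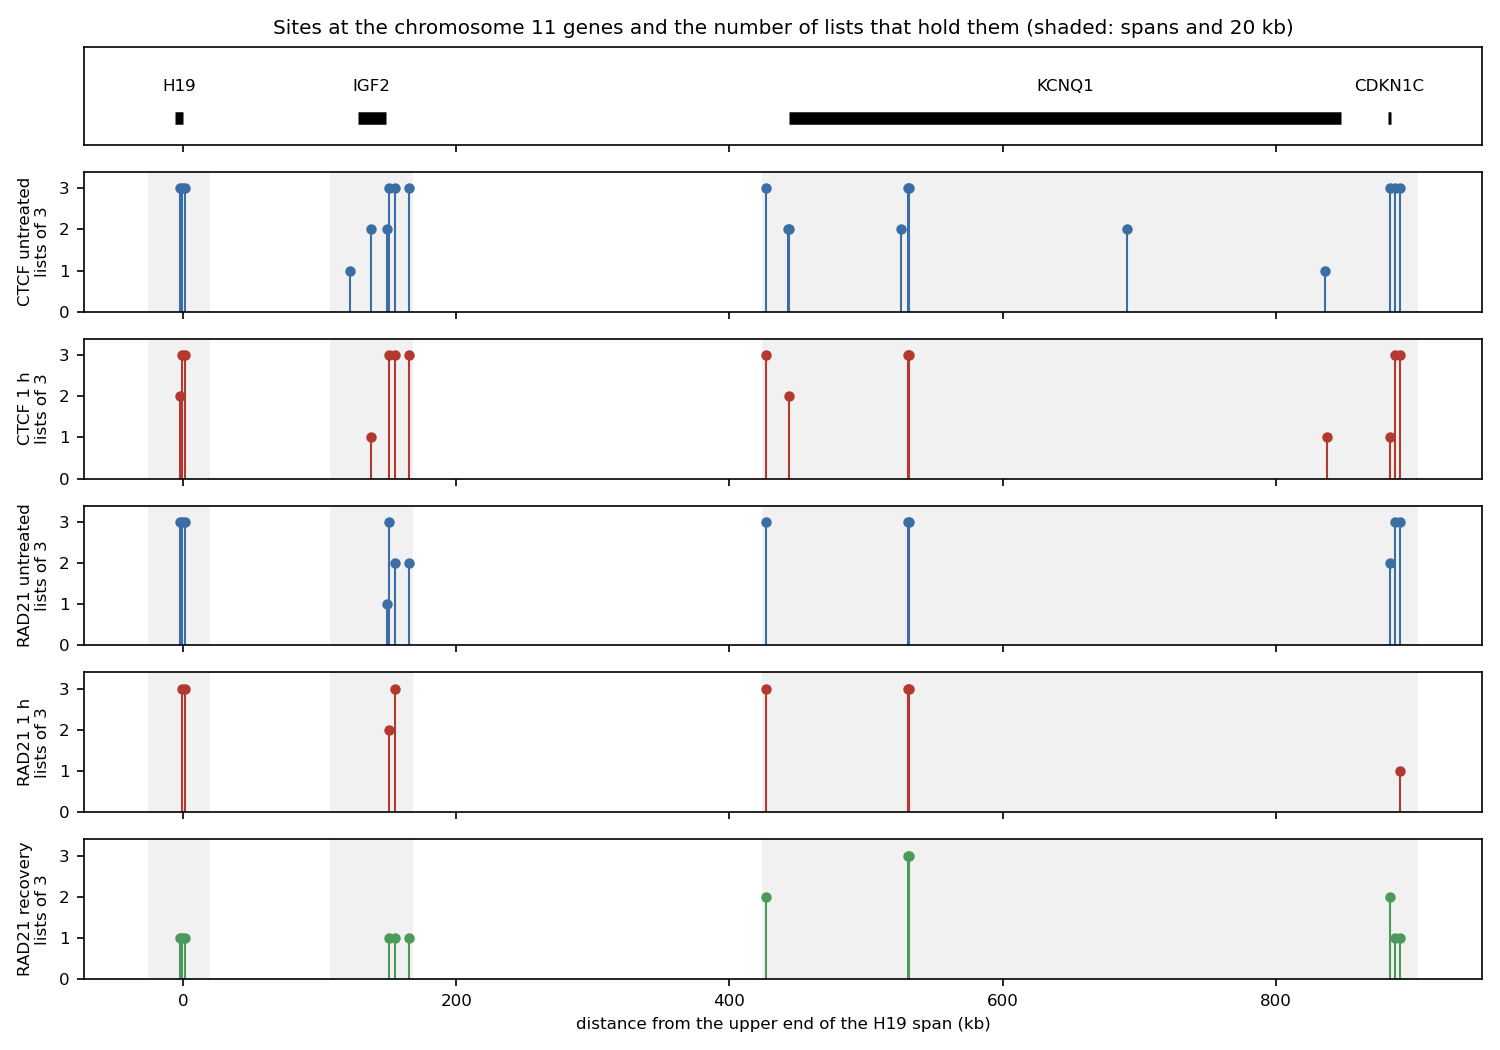
Number of lists out of 3 (vertical axes) that hold each CTCF or RAD21 site of the chromosome 11 genes, against the distance from the upper end of the H19 span (horizontal axis, kb), with gene spans as black bars and the searched windows shaded. CTCF stands at H19, IGF2, KCNQ1 and CDKN1C in both states. RAD21 is still in 3 lists at sites of H19 and KCNQ1 at 1 h, and 1 site at IGF2 goes from 2 lists to 3. In recovery only the paired KCNQ1 sites are in 3.

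Libraries pre-treated with triptolide had no replicate, so their values stand without a test. CTCF was at 35 of the 63 sites without stress, 21 at 1 h of NaCl and 29 in recovery, and RAD21 at 37, 7 and 27. In the stressed triptolide library RAD21 was called 3 times each at H19 and KCNQ1, once each at IGF2 and NNAT, and 0 times at CDKN1C, GNAS, GRB10, PEG10 and SNRPN. In the recovering triptolide library it was called 5 times at H19, 3 at KCNQ1 and CDKN1C, 5 at GNAS and 6 at GRB10.

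Pol II coverage of the gene spans moved in both directions. The share of the NNAT span within Pol II regions was 100 and 100% in the untreated libraries and 0 and 0% at 1 h. That of GNAS was 50.2 and 49.1% and then 12.5 and 29.1%, and that of SNRPN 10.5 and 12.3% and then 2.39 and 5.72%. In these 3 genes both 1 h libraries were below both untreated ones, beside 27.5% of all 40755 genes with a region and 50.5% of the 22214 genes covered in both untreated libraries. NNAT is only 2.441 kb long and lies inside the span of BLCAP, and a single region in each untreated library, 30.2 and 29.3 kb wide, ran across the gene. BLCAP itself went from 100 and 100% to 10.8 and 2.49%. The signal has no strand, so the transcripts of the overlapping genes cannot be told apart, and the same holds for SNRPN with SNURF (68.8 and 73.5%, then 4.44 and 13.1%) and SNHG14.

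The 3 genes covered more at 1 h all lie on chromosome 11. IGF2 went from 2.18 and 2.38% to 6.73 and 7.98%, KCNQ1 from 0.322 and 0% to 9.55 and 7.04%, and CDKN1C from 9.89 and 7.66% to 100 and 100%, beside 17.2% of all genes called higher. The groups do not overlap, but in 1 h replicate 2 no region at these 3 genes reached a -log10 q of 1.3. In 1 h replicate 1 this value was reached by 2 of 2 regions at IGF2, 9 of 16 at KCNQ1 and 0 of 1 at CDKN1C. At CDKN1C each 1 h library has 1 region, of 23.6 and 8.56 kb, with the authors' -log10 q at 0.304 and 0.025, whereas the untreated ones are 0.338 and 0.325 kb wide with -log10 q of 11.6 and 0.785. With regions of -log10 q of at least 1.3 alone, 0 of these genes were called higher (1.37% of all genes) and 3 lower (34.0%). Without 1 h replicate 1 the number called higher was 5, beside 39.9% of all genes. H19 had no Pol II region in any library. GRB10 (16.0 and 6.69%, then 14.0 and 17.1%) and PEG10 (27.2 and 30.2%, then 1.93 and 66.9%) overlapped between the states. All 6 calls have an exact permutation p of 0.3333, the least for 2 against 2 libraries, and 0.745 after adjustment over all genes. The median coverage over all genes with a region was 6.36 and 5.39% untreated and 2.09 and 7.26% at 1 h. The cell type markers moved too: the median over the 10 luminal genes went from 100 and 97.6% to 21.1 and 24.0%, and that over the 6 haematopoietic genes from 4.97 and 9.45% to 23.9 and 29.1%, with ITGAM at 3.53 and 0% and then 98.1 and 95.1%. The medians were 2.78 and 0% and then 9.30 and 7.65% for the 6 fibroblast genes, and 3.34 and 0.552% and then 2.43 and 2.49% for the 6 neuronal and muscle genes, of which MYH7 and DES were at 0 in all 4 lists. What part these shifts have in the values of the imprinted genes was not tested.

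**Figure D5:**
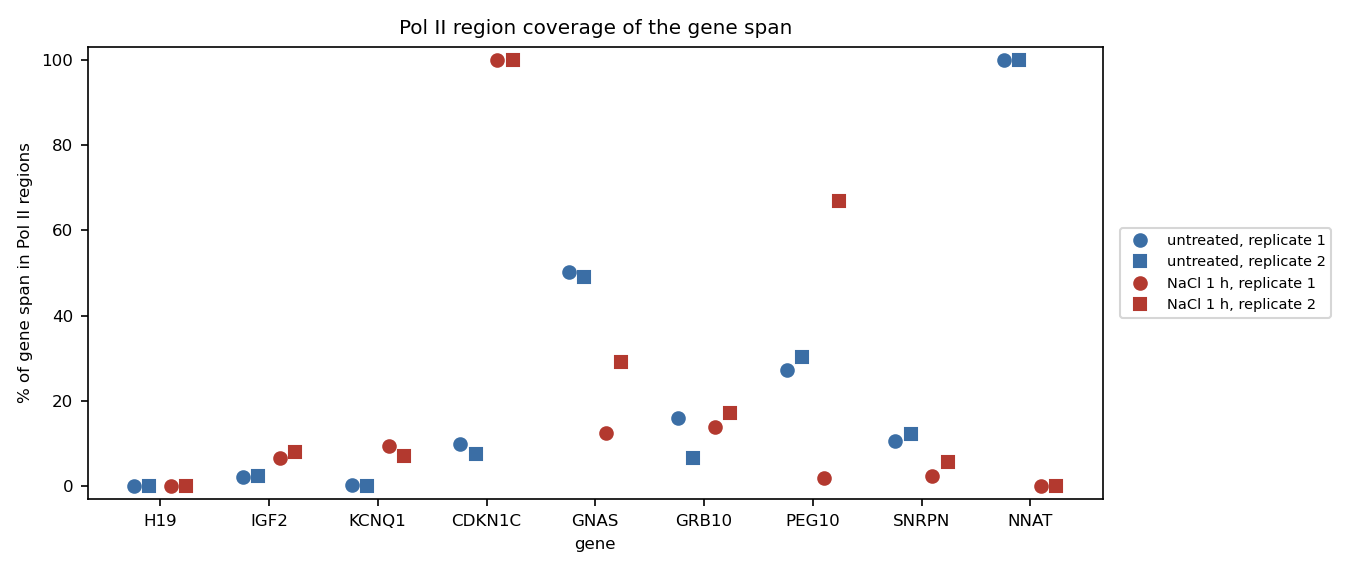
Percent of each gene's span within Pol II regions (vertical axis) in 2 untreated and 2 libraries at 1 h of NaCl, 1 point per library. NNAT falls from 100 to 0% and GNAS and SNRPN fall in both libraries, CDKN1C rises to 100% on regions of low -log10 q, and H19 is at 0 throughout.

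Pol II at the sites themselves gave no single pattern. The site at chr11:2427826-2428813 in TRPM5 was 0% covered by Pol II regions in both untreated libraries and 100% in both at 1 h, and its RAD21 peak was in every library of both states. The PEG10 site at chr7:94655884-94656609, where RAD21 was absent at 1 h, was 100% covered in both untreated libraries and then 0 and 100% covered. At H19 no state had a region over any of the 3 sites.

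Other imprinted genes were read in the same way. A list of 49 further genes was searched within 1 kb of their spans, leaving out sites already counted. Of 28 CTCF sites in all untreated lists, 18 were kept (57.1% over all sites), 4 were absent at 1 h (5.85% over all sites) and 6 were in some lists. Kept sites were led by L3MBTL1, ZNF331, PLAGL1 and MAGEL2, and the absent ones lay at PPP1R9A, RTL1, UBE3A and IGF2R. Of 15 RAD21 sites 6 were kept (PLAGL1, MAGEL2, DDC, L3MBTL1, TSPAN32 and MEG3; 34.5% over all sites), 8 were absent (32.4% over all sites) and 1 was in some lists. Of the absent sites 2 lay at OSBPL5 and 1 at ASCL2, both on chromosome 11 near the genes above, where CTCF at OSBPL5 was kept. For Pol II 15 of 42 genes with a region were lower at 1 h, among them ASCL2 (100 and 100%, then 11.6 and 8.03%) and UBE3A (88.9 and 72.9%, then 1.14 and 6.42%), 5 were higher and 22 overlapped, beside 27.5% lower and 17.2% higher over all genes.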

How the data were processed

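CTCF, RAD21 and Pol II occupancy in T47D cells was taken from 29 deposited peak lists, each of them called on 1 library. The 12 input samples were not analysed here. Per the submitters' processing notes, reads were handled with Bowtie2 (version 2.2.6), cutadapt and MACS2 on hg38. The notes of set 1 also name HOMER and DiffBind (version 2.4.6), among others. What each tool did, the threshold and the control were not given in the sources used here. For each peak the authors deposited a fold enrichment (a ratio), -log10 p and -log10 q values, and an integer score, which was not used.

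Samples were grouped by title. The series text and the titles differ slightly on the NaCl concentration, and that of the titles, 110 mM, is given. The members and gene lists were chosen with earlier results of these data known. By a rule for naming, every site called in all untreated lists is described and the rest are counted.

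Peaks overlapping by 1 bp were merged into sites, separately for each comparison. A site is kept when every library holds it, and lost when every untreated and no treated library does. Peak numbers (span and 20 kb) and Pol II coverage (span) per gene were compared by exact 2-sided permutation tests with Benjamini-Hochberg adjustment over all genes, and a gene is called where the groups do not overlap. With 3 against 3 libraries p cannot go below 0.1, and with 2 against 2 below 0.3333. Peak numbers of CTCF libraries with the same number were correlated after centring on each group (r 0.19, 0.51 and 0.47, untreated with 1 h), so the result with the replicate block is given beside that without; number 3 was assigned to the set 2 library, so the pairing comes from the data and the shared set. Scripts (Python 3.11.15, numpy 2.4.6, pandas 2.3.3, scipy 1.17.1) were tested on simulated data. Alternatives were summits within 150 bp, -log10 q of at least 5 (Pol II 1.3), equal list lengths, other flanks, a replicate block, single sets and leaving out each library; the split by set was added after seeing the data. No lists were identical (0 pairs). No genome sequence was used, so CTCF motifs at peaks were not searched.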

Additional observations from a re-analysis of the deposited data

Results flagged for a closer look

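Triptolide pre-treatment went with more sites in one state and fewer in another, in single libraries, so none of these differences was tested. For CTCF the triptolide library held 2 more of the 63 sites than the untreated library of the same set and 2 fewer at 1 h of NaCl, a difference of -4 between these effects. In recovery it held 11 fewer, a difference of -13 from the untreated state. For RAD21 the triptolide library held 11 more sites without stress and 2 fewer at 1 h, a difference of -13, and 22 more in recovery, which differs from the 1 h effect by 24. The recovery comparison sets 27 sites with triptolide against 5 in the set 2 library without it. The RAD21 recovery libraries of set 1, also without triptolide, held 3 and 26. The untreated RAD21 triptolide list is also the longest of its kind, with 40969 peaks. The set 2 recovery list without triptolide had 6492 peaks, and the part of list length was not tested.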

How the results depend on the processing

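Depth limits all of this: the lists keep only called peaks, so absence from a list says only that no peak was called there. Percentages in brackets are the shares over all sites or all genes at the same setting. Lists were reduced to the same number of strongest peaks (22018 for CTCF at 1 h, 4761 for RAD21 at 1 h, 31074 at 7.5 min). This left 4 kept of 5 CTCF sites (67.4%), and 2 kept (66.6%) and 0 lost (11.1%) of 2 RAD21 sites. At 7.5 min 15 were kept (89.3%) and 0 lost (4.34%) of 17. Fewer CTCF peaks were found at 1 gene (1.45%) and fewer RAD21 peaks at 0 genes (2.77%). With spans alone the kept sites were 9 of 13 for CTCF (57.1%) and 4 of 11 for RAD21 (34.5%). At 7.5 min they were 14 of 19 (67.8%), and 1 was lost (20.6%). Flanks of 50 kb gave 5 lost of 45 at 7.5 min (20.6%). Requiring -log10 q of at least 5 gave 1 lost CTCF site of 23 (5.60%) and 1 gene with fewer CTCF peaks (6.69%). A value of at least 1.3 gave 0 genes with more Pol II (1.37%). Within set 1 the lost CTCF sites were 7 of 33 (22.8%) and the regained RAD21 sites 1 of 9 (14.0%). Within set 2 lost CTCF sites were 12 of 35 (49.9%), lost RAD21 sites 18 of 29 (73.9%) and regained ones 1 of 18 (11.4%).

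Leaving out each library gave 17 to 20 kept and 0 to 6 lost CTCF sites, 8 to 9 kept and 6 to 9 lost RAD21 sites, 0 to 1 regained, 23 to 29 kept and 4 to 17 lost at 7.5 min, 0 to 4 genes with fewer CTCF peaks and 5 to 7 with fewer RAD21 peaks, and 3 to 4 genes with less and 3 to 5 with more Pol II. The sites counted and the shares over the genome moved more than these ranges. Kept CTCF sites were 17 of 33 (35.0%) without untreated replicate 3 and 20 of 23 (88.1%) without 1 h replicate 3. Without untreated replicate 2, lost RAD21 sites were 9 of 23 (48.2%) and 7 genes had fewer RAD21 peaks (40.3%). For RAD21 same-numbered libraries had r of -0.02, 0.22 and 0.13, and different numbers -0.205 to 0.134, so a pairing was not clear. With the replicate block 3 genes had fewer CTCF peaks in every pair (KCNQ1, GNAS and GRB10, beside 16.9% of all genes). The RAD21 count of 5 did not move (25.4% of all genes), nor did those of Pol II, 3 lower (29.9%) and 3 higher (19.2%). Why these counts differ was not tested, beyond the smaller number of peaks, windows or libraries that each setting leaves.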
